A study of Mus musculus with 5 samples.

Results

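Brown adipose tissue (BAT) burns fatty acids to make heat, and it draws them from its own lipid droplets and from circulating lipoproteins. Inside the adipocyte, triglyceride is cut to fatty acids and glycerol by adipose triglyceride lipase, hormone-sensitive lipase and monoglyceride lipase in turn, while perilipins on the droplet surface hold the lipases and their co-activator in check until adrenergic signalling releases them. At the capillary wall, lipoprotein lipase frees fatty acids from lipoproteins, and CD36 helps to carry them into the cell. The 10 genes described here make up this path: Pnpla2, Lipe, Mgll and Abhd5 for intracellular lipolysis, Plin1 and Plin5 for the droplet coat, Lpl, Gpihbp1 and Angptl4 for lipolysis in the vessel, and Cd36 for uptake. They were taken by name from the 52022 genes over which transcripts were summed, and all 10 were found and passed the filter on low counts.

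RNA was sequenced from interscapular BAT of 3 ATF4 BKO and 2 WT mice, fed ad libitum and kept at 4 °C for 3 days. ATF4 BKO mice carried floxed ATF4 alleles (ATF4 fl/fl) and a Cre transgene under the Ucp1 promoter (Tg(Ucp1-cre)1Evdr), which limits deletion of this stress-response transcription factor to thermogenic adipocytes and leaves other cells of the tissue with the gene. WT mice were littermates with the same floxed alleles and no Cre, on the C57Bl/6J background, and all mice were 10 to 12 weeks old and male by label. No mice at another temperature were analysed here, so the values describe cold-exposed tissue and not a response to cold. Estimated counts summed to between 24698337 and 32452751 per library. P-values measure the spread between these libraries.

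Atf4 itself stood at 32.6, 52.6 and 23.5 CPM (gene counts scaled to a common library size with edgeR's TMM factors) in ATF4 BKO 1, 2 and 3, and at 286 and 226 CPM in WT 1 and 2. All ATF4 BKO libraries were far below both WT libraries, a log2 fold change of -2.82 ± 0.34 (SE; ATF4 BKO minus WT here and below). Its adjusted p was 0.671 in edgeR's quasi-likelihood test with Benjamini-Hochberg adjustment over 16450 genes, and 9.7e-12 in DESeq2. The brown adipocyte marker list was detected in full, with Ucp1 at 9762 to 13076 CPM over the 5 libraries.

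Certain libraries stood apart before any lipid gene was compared. ATF4 BKO 1 held 4598 estimated counts of Xist, the RNA that coats an inactive X chromosome, against 0 to 7 in the others, and 34 counts over Uty, Kdm5d, Ddx3y and Eif2s3y, which lie on the Y chromosome, against 3284 to 4476, which goes against its label as male. WT 2 held 2326 CPM over 14 skeletal muscle markers, against 127 CPM in WT 1 and 38.5 to 50.5 CPM in the ATF4 BKO libraries. As a mean of log2 CPM, which gives each marker equal weight, both WT libraries stood above the ATF4 BKO libraries for muscle (6.76 in WT 2 and 2.58 in WT 1, against -1.49 to 0.86). WT 1 held 188 CPM over 8 macrophage markers, against 476 to 1319 CPM elsewhere. The genotype fits below were therefore also computed without each library in turn.

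None of the 10 genes was called as different between ATF4 BKO and WT. The edgeR test did not call the deleted gene Atf4 either (adjusted p = 0.671), although DESeq2 did. The lack of calls therefore does not show that the 10 genes were unchanged. At an adjusted p under 0.05, 0 of 10 were called by edgeR, where 0.00608% of all genes were called, and 0 of 10 by DESeq2, where 0.736% were. No member had an unadjusted edgeR p under 0.05 either, against 5.23% of all genes. The fitted log2 fold change was above 0 for 8 genes and below 0 for 2 on counts with TMM scaling, but above 0 for 6 with library totals alone and for 4 on log2(TPM + 1), where TPM is the deposited level per transcript length. Of all genes, 51.2% were above 0 and 48.8% below on counts with TMM scaling. The median over the 10 genes was 0.18 beside 0.01 over all genes on counts with TMM scaling. It was 0.07 beside -0.10 with library totals alone, and -0.08 beside -0.12 on log2(TPM + 1). The median of all genes thus lay below 0 on those scales, which bears on the sign counts there. On counts with TMM scaling, the median over the 10 genes stayed between 0.13 and 0.30 when each library was left out. The genes' median log2 CPM was 9.98, 9.51 and 9.95 in ATF4 BKO 1, 2 and 3, and 9.71 and 9.88 in WT 1 and 2. Its pooled SD within groups was 0.225. The 1 gene called by edgeR was Cacna1i, a calcium channel subunit outside this path that is named only because its p was seen (log2 fold change 9.18, adjusted p = 0.00954). The number of calls was 0 without any 1 of the ATF4 BKO libraries and 23 without WT 1.

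**Figure D1:**
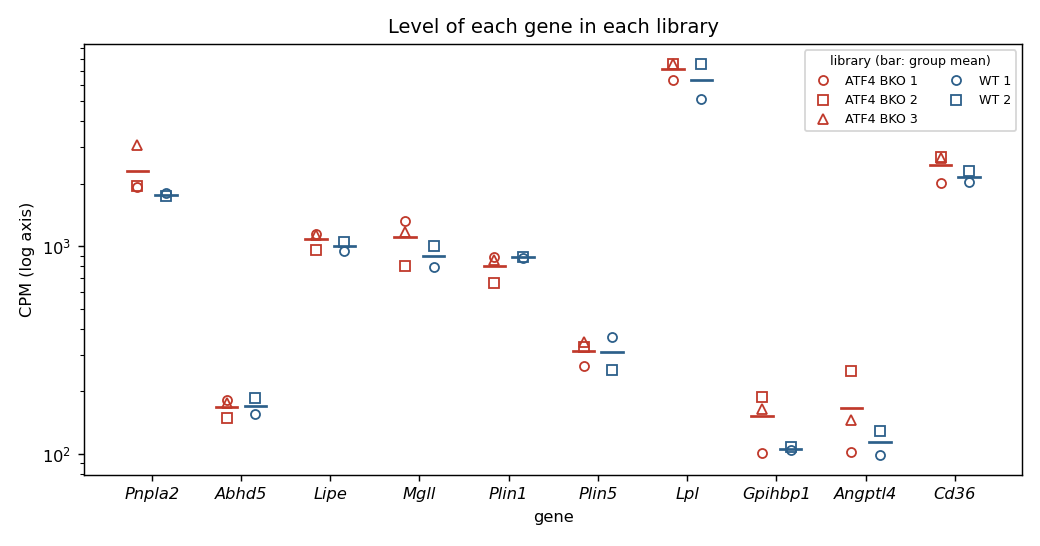
CPM of each of the 10 genes (horizontal axis) on a log axis, with 1 symbol for each of the 3 ATF4 BKO libraries (red) and 2 WT libraries (blue) and a bar at each group mean. Red and blue symbols overlap for every gene but Pnpla2, whose lowest ATF4 BKO value (1926 CPM) lies just above the highest WT value (1804 CPM), a separation that was not seen in TPM, where Plin1 alone separated, with the ATF4 BKO values below both WT values.

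Compared per length, as mean TPM over the 5 libraries, Lpl was the most abundant of the 10 at 2081 TPM and Angptl4 the least at 98.9 TPM. Between them stood Pnpla2 (1385 TPM), Cd36 (1201 TPM), Plin1 (642 TPM), Lipe (564 TPM), Mgll (353 TPM), Gpihbp1 (235 TPM), Plin5 (202 TPM) and Abhd5 (115 TPM). Lpl came first in each of the 5 libraries. Pnpla2 and Cd36 followed in each library but traded places between libraries, so their levels were not ordered beyond the spread. The same held for Plin1 and Lipe, and for Abhd5 and Angptl4 at the bottom. Gpihbp1 traded places with Mgll in ATF4 BKO 2 and with Plin5 in WT 1, while Mgll was above Plin5 in each of the 5 libraries.

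Pnpla2 encodes adipose triglyceride lipase, which takes the first fatty acid from triglyceride. It lies on chr7:141455198-141460743 (GRCm38, + strand). Its level was 1926, 1962 and 3061 CPM in ATF4 BKO 1, 2 and 3, and 1804 and 1746 CPM in WT 1 and 2. The ATF4 BKO libraries all lay above both WT libraries in CPM, but ATF4 BKO 3 stood far above the other 4, which were close together. It was the 1 member of 10 whose groups did not overlap in CPM, against 19.6% of all genes, and 8.95% of all genes had each ATF4 BKO value above both WT values. In TPM the groups overlapped, with ATF4 BKO 1 at 1147 TPM below both WT libraries (1294 and 1291 TPM). Its log2 fold change was 0.38 ± 0.26 (SE; edgeR adjusted p = 0.920), and 0.13 without ATF4 BKO 3. Between 70.2% and 76.2% of its estimated counts were assigned to Pnpla2-201, a transcript annotated as a target of nonsense-mediated decay, and 15.4% to 21.4% to the protein-coding Pnpla2-202. The start sites of these transcripts are a single base apart.

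Abhd5, also called CGI-58, binds adipose triglyceride lipase and activates it once perilipin lets it go. It lies on chr9:122351608-122381524 (+ strand). It measured 181, 149 and 175 CPM in the ATF4 BKO libraries and 156 and 185 CPM in the WT libraries. The groups overlapped almost entirely, and the log2 fold change of -0.02 ± 0.15 (SE; edgeR adjusted p = 0.991) was the most tightly bounded of the 10, with a 95% interval from 0.765-fold to 1.28-fold. Its sign was positive with length-scaled counts. A share of 16.6% of its 31-base words also occurs in transcripts of other genes, so its estimated counts depend on how such reads were divided.

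Lipe encodes hormone-sensitive lipase, the main diglyceride lipase, and lies on chr7:25379527-25398710 (- strand). Its level was 1146, 956 and 1139 CPM in the ATF4 BKO libraries and 954 and 1052 CPM in the WT libraries. ATF4 BKO 2 matched WT 1 at the low end, and the other ATF4 BKO libraries lay above both WT libraries. A log2 fold change of 0.11 ± 0.17 (SE; edgeR adjusted p = 0.959) was fitted, and it was below 0 with library totals alone and on TPM. It ran from 0.05 without WT 1 to 0.21 without ATF4 BKO 2. Most of its counts, 77.7% to 80.0%, were on Lipe-202 in each library. A share of 12.9% of its 31-base words is also found elsewhere, including in the overlapping gene 4732471J01Rik.

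Mgll encodes monoglyceride lipase, which completes the breakdown to glycerol, and lies on chr6:88724412-88828360 (+ strand). It measured 1329, 803 and 1177 CPM in the ATF4 BKO libraries and 792 and 1006 CPM in the WT libraries. ATF4 BKO 2 and WT 1 were both low, and the other ATF4 BKO libraries were the 2 highest of the 5. Its log2 fold change was 0.30 ± 0.26 (SE; edgeR adjusted p = 0.936). Without ATF4 BKO 2 it was 0.50 (edgeR adjusted p = 0.724), with an unadjusted p under 0.05. It was 0.14 without ATF4 BKO 1, 0.15 without WT 1, 0.47 without WT 2 and 0.02 on log2(TPM + 1).

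**Figure D2:**
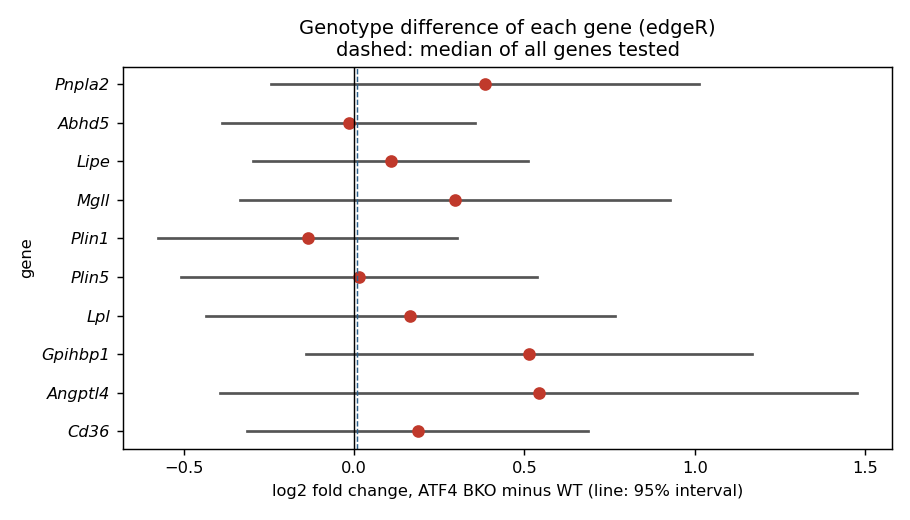
log2 fold change (ATF4 BKO minus WT, edgeR on counts with TMM scaling) of each of the 10 genes as a point, with its 95% interval as a line, a solid vertical line at 0 and a dashed one at the median of all genes tested (0.01). The intervals of all 10 genes cross 0, and points right of 0 outnumber those left of it by 8 to 2 on this scale and by 4 to 6 on log2(TPM + 1).

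The 95% intervals give the range of fold changes around each estimate. All 10 included 0, and over the genes they ran from 0.671-fold, the lower bound for Plin1, to 2.78-fold, the upper bound for Angptl4. A doubling of Abhd5, Lipe, Mgll, Plin1, Plin5, Lpl or Cd36 lay outside the interval of that gene, while for Pnpla2, Gpihbp1 and Angptl4 it lay inside.

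Perilipin 1, encoded by Plin1 on chr7:79720218-79732903 (- strand), coats adipocyte droplets and holds Abhd5 protein away from the lipase in the unstimulated cell. It measured 886, 665 and 863 CPM in the ATF4 BKO libraries and 883 and 886 CPM in the WT libraries. ATF4 BKO 2 was low and the other 4 libraries were nearly level. Plin1 had a log2 fold change of -0.14 ± 0.18 (SE; edgeR adjusted p = 0.948) and, on log2(TPM + 1), -0.36 (limma adjusted p = 0.571), where its unadjusted p was under 0.05. Without ATF4 BKO 2 it was near 0 (8e-04) on counts with TMM scaling. In TPM the groups did not overlap, at 597, 517 and 619 TPM in the ATF4 BKO libraries and 727 and 751 TPM in the WT libraries. Plin1 was the 1 member of 10 that separated in TPM, where 24.9% of all genes had each ATF4 BKO value below both WT values, 3.02% had each above, and 27.9% did either. The mix of its transcripts also varied within a group: Plin1-206 held 70.4%, 54.7% and 65.6% of the counts in the ATF4 BKO libraries and 62.1% and 69.9% in the WT libraries.

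Plin5 encodes perilipin 5, a droplet protein of oxidative tissues that sits where droplets touch mitochondria, on chr17:56111601-56117596 (- strand). Its level was 265, 326 and 348 CPM in the ATF4 BKO libraries and 366 and 253 CPM in the WT libraries. The 2 WT libraries held the highest and the lowest value, so the ATF4 BKO range fell wholly inside the WT range. Its fitted log2 fold change of 0.02 ± 0.21 (SE; edgeR adjusted p = 0.994) was below 0 with library totals alone and on TPM. It was -0.32 among the libraries whose sample names carried the prefix S1 (ATF4 BKO 1 and 2 against WT 1). Among those with S2, a single library of each genotype (ATF4 BKO 3 against WT 2), it was 0.46. The sources used here do not state the meaning of the prefix.

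Plin5 has a pair of annotated transcripts of equal length that differ at their starts, and the groups did not overlap in the share of counts on each. Plin5-201 held 74.7%, 82.4% and 78.7% of the Plin5 counts in the ATF4 BKO libraries and 67.3% and 72.2% in the WT libraries, and Plin5-202 the rest. The gap between the lowest ATF4 BKO and the highest WT share was smaller than the range within either group. The 160 bases before each start are shown to let the 2 starts be compared, from RefSeq (GRCm38.p6), - strand, read 5′ to 3′, at chr17:56117597-56117756 and chr17:56117299-56117458.
Plin5-201: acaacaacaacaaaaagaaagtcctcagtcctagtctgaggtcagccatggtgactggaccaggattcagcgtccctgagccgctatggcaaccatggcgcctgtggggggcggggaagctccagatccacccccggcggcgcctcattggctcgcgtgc
Plin5-202: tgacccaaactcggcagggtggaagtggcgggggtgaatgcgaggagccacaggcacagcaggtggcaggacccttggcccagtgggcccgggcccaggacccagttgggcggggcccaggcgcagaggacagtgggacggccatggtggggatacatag

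Promoters were searched on both strands for 4 motifs, from 250 bases before to 50 bases after each start in the RefSeq table, which held 10 promoters of 7 of the 10 genes. Lpl, Gpihbp1 and Angptl4 had no entry in it. The PPAR direct repeat AGGTCANAGGTCA (0.0396% of 32851 promoters), the cAMP response element TGACGTCA (1.79%) and the C/EBP-ATF composite element TGATGNAA (3.97%) were in none of the 10. The E-box CACGTG (7.15% of all promoters) was in 1 of the Lipe promoters and 1 of the Mgll promoters. A match is a run of letters and not a bound site. The Mgll stretch is shown because it is the start that held 96.8% to 99.0% of the Mgll counts in every library, with the E-box in capitals, its first base 44 bases before the start (chr6:88724252-88724411, + strand).
Mgll-204: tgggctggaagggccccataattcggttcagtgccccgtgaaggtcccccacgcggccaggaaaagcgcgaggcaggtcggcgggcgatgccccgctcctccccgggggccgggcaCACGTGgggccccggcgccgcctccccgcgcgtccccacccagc

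Lpl encodes lipoprotein lipase, which adipocytes secrete and which frees fatty acids from triglyceride-rich lipoproteins, and lies on chr8:68880491-68907448 (+ strand). It measured 6323, 7554 and 7538 CPM in the ATF4 BKO libraries and 5133 and 7594 CPM in the WT libraries. WT 2 was level with 2 of the ATF4 BKO libraries and WT 1 was the lowest of the 5. The log2 fold change was 0.17 ± 0.25 (SE; edgeR adjusted p = 0.957), -0.08 on log2(TPM + 1) and -0.08 without WT 1. Lpl is also expressed by muscle, and the part of muscle RNA in its values was not tested. A fit that included the level of muscle markers gave Lpl a log2 fold change of 0.76 (edgeR adjusted p = 0.577). That level was higher in both WT libraries than in any ATF4 BKO library, so the fit could not reliably tell it apart from genotype. Lpl-201 held 98.7% to 99.7% of its counts in the ATF4 BKO libraries and 91.6% and 96.8% in the WT libraries.

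Gpihbp1 encodes the anchor that carries lipoprotein lipase across capillary endothelial cells and holds it at the vessel wall. It lies on chr15:75596628-75599481 (+ strand), 4.66 Mb from Atf4. Its level was 102, 188 and 165 CPM in the ATF4 BKO libraries and 104 and 108 CPM in the WT libraries. ATF4 BKO 2 and 3 stood clear of both WT libraries, while ATF4 BKO 1 was the lowest of the 5. For Gpihbp1 the log2 fold change was 0.51 ± 0.27 (SE; edgeR adjusted p = 0.911), with the smallest p of the 10 genes. Without ATF4 BKO 1, the library with Xist counts, it was 0.73 (edgeR adjusted p = 0.977), with an unadjusted p under 0.05. It was 0.35 without ATF4 BKO 2 and 0.28 on log2(TPM + 1).

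Gpihbp1 is made by endothelial cells, which kept Atf4 in this model, and their markers were read beside it. The 10 endothelial markers summed to 1198, 1181 and 1482 CPM in the ATF4 BKO libraries and to 927 and 1099 CPM in the WT libraries. All 10 had a fitted log2 fold change above 0 on counts with TMM scaling and 9 of 10 on log2(TPM + 1), with medians of 0.38 and 0.21, and none was called by edgeR or DESeq2. At an unadjusted edgeR p under 0.05, 3 of the 10 passed (5.23% of all genes). That count was 5 without ATF4 BKO 1, 3 without ATF4 BKO 2 and 0 without ATF4 BKO 3. It also fell to 0 when counts were scaled only by library totals, and to 0 in limma on log2(TPM + 1). With replicate number as a block, or with muscle markers as a covariate, it was 0 too. The median log2 fold change of the 10 markers was 0.31 without WT 1 and 0.51 without WT 2. In CPM, 5 of the 10 had each ATF4 BKO value above both WT values (8.95% of all genes). Of these, Pecam1, Tek, Tie1 and Erg overlapped in TPM. Robo4 stayed apart by a narrow margin, at 12.07 to 16.08 TPM against 9.78 and 12.00 TPM. Cdh5, the most abundant of the 10 markers per length, measured 248, 304 and 335 CPM in the ATF4 BKO libraries and 209 and 264 CPM in the WT libraries. None of the 10 markers was at 0 in any library. In bulk tissue, a different number of cells of a type and a different amount of RNA per cell cannot be told apart, and the part of endothelial RNA in the Gpihbp1 values was not tested.

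Angptl4 encodes a secreted inhibitor that unfolds lipoprotein lipase, and lies on chr17:33773750-33781830 (- strand). It measured 102, 251 and 146 CPM in the ATF4 BKO libraries and 98.6 and 130 CPM in the WT libraries. ATF4 BKO 2 stood far above the rest, and it carried most of the difference between group means. The log2 fold change was 0.54 ± 0.38 (SE; edgeR adjusted p = 0.921), and 0.14 without ATF4 BKO 2. Its spread within ATF4 BKO, 2.46-fold from the lowest to the highest library, was the widest of the 10 genes. As for Pnpla2, a transcript annotated as a target of nonsense-mediated decay, Angptl4-202, was assigned most of the counts, at 76.2% to 77.8% in the 5 libraries.

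Cd36 encodes a fatty acid translocase of adipocytes, capillary endothelium and macrophages, and lies on chr5:17781690-17888801 (- strand). Its level was 2016, 2700 and 2677 CPM in the ATF4 BKO libraries and 2035 and 2296 CPM in the WT libraries. ATF4 BKO 1 was level with WT 1 at the low end, and the other ATF4 BKO libraries were the 2 highest of the 5. The log2 fold change was 0.19 ± 0.21 (SE; edgeR adjusted p = 0.942) on counts and -0.11 on log2(TPM + 1). On counts it was 0.31 without ATF4 BKO 1 and 0.11 without WT 1.

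The groups did not overlap in the share of Cd36 counts on the 2 main annotated starts. Cd36-203, which starts at position 17888747, held 42.0%, 39.6% and 41.5% in the ATF4 BKO libraries and 32.4% and 32.8% in the WT libraries. Cd36-206, which starts nearer to the coding exons at position 17835717, held 49.3%, 52.0% and 49.9% in the ATF4 BKO libraries and 56.7% and 57.7% in the WT libraries. For shares of counts the gap between genotypes was wider than the range inside either group. For shares of TPM this did not hold for Cd36-206, at 49.3% to 49.97% against 50.6% and 54.0%. The further start of Cd36-204 held 5.6% to 7.0% of the counts and the groups overlapped. Both transcripts have the same coding length of 1416 bases.

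**Figure D3:**
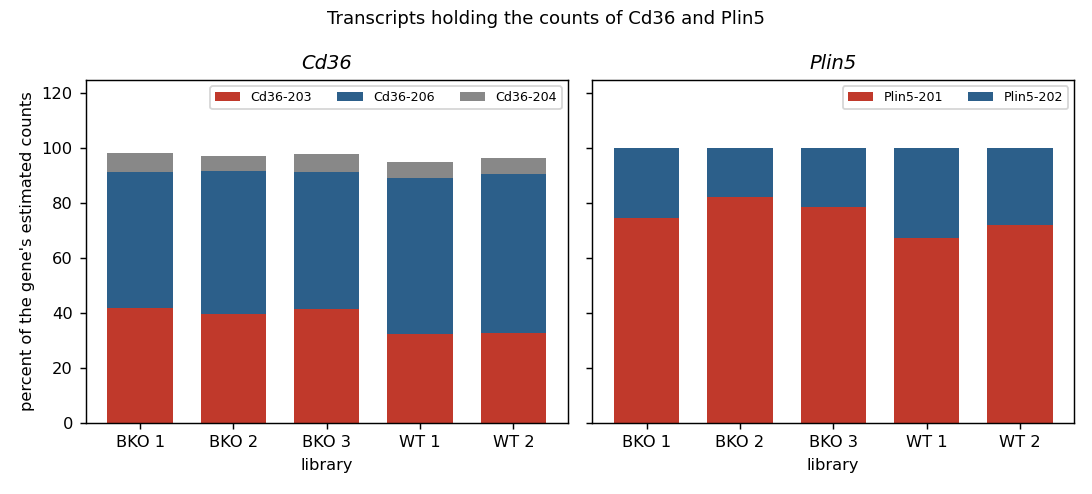
Percent of the estimated counts of Cd36 (left) and Plin5 (right) on each transcript that held at least 5% of them, stacked for each of the 5 libraries. The red Cd36-203 share was 39.6% to 42.0% in the ATF4 BKO and 32.4% to 32.8% in the WT libraries, and the red Plin5-201 share was 74.7% to 82.4% and 67.3% to 72.2%.

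Over the 10 genes, 22 transcripts held at least 5% of the counts of their gene, and the groups did not overlap in the share of 7 of them, whether shares were taken of counts or of TPM. Over all genes the figure was 19.8% of 31488 transcripts. The 7 were Cd36-203, Cd36-206, Plin5-201, Plin5-202, Abhd5-201, Plin1-203 and Lpl-201. Shares within a gene sum to 100%, so the Cd36 pair and the Plin5 pair each count 1 shift from both sides. These shares were not tested, and how kallisto divided reads between overlapping transcripts bears on each of them.

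**Figure D4:**
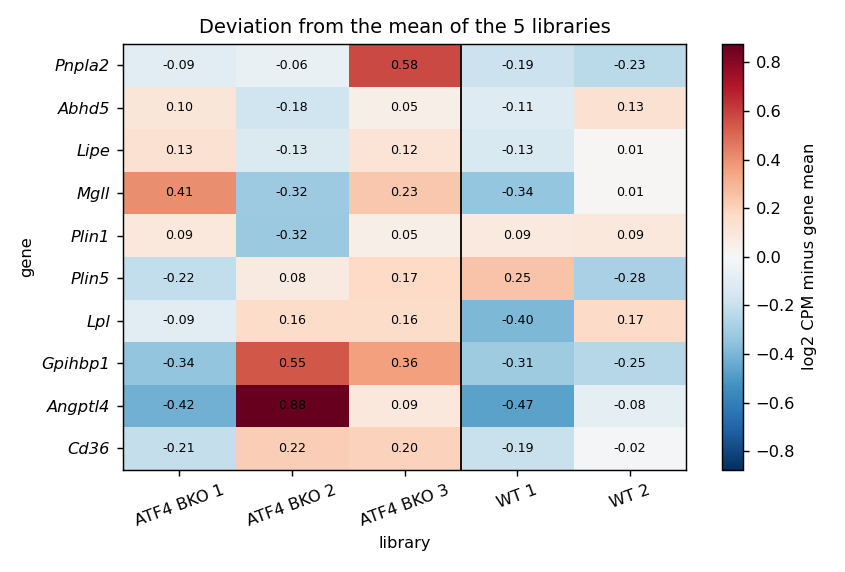
log2 CPM of each of the 10 genes in each library minus the mean of that gene over the 5 libraries, in colour with the value printed (red above, blue below), and a vertical line between ATF4 BKO and WT. The strongest colours are single libraries, ATF4 BKO 2 for Angptl4 (0.88) and ATF4 BKO 3 for Pnpla2 (0.58), and columns of 1 genotype differ from each other.

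The libraries did not move as a block. ATF4 BKO 1 and ATF4 BKO 2 each held the highest CPM of 3 of the 10 genes, WT 2 of 2, and ATF4 BKO 3 and WT 1 of 1 each. WT 1 held the lowest value of 4 genes, ATF4 BKO 1, ATF4 BKO 2 and WT 2 of 2 each, and ATF4 BKO 3 of none. ATF4 BKO 2 was high for Gpihbp1, Angptl4 and Cd36 and low for Mgll and Plin1, and ATF4 BKO 1 showed the opposite at each of these genes.

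A wider list of 59 genes around the 10 was read in the same fit. Of these, 58 were tested, 30 with a log2 fold change above 0 and 28 below it on counts with TMM scaling, and 23 above and 35 below on log2(TPM + 1). None was called by edgeR or DESeq2, and 4 had an unadjusted edgeR p under 0.05 (Prkar2b, Hsd17b11, Apoc1 and Gpat4), a share near the 5.23% of all genes. The median was 0.03 on counts and -0.18 on log2(TPM + 1), against the shift of -0.12 in all genes on that scale. The gene that could not be tested was Fitm1, a droplet-forming protein of muscle, with 104 counts in WT 2 and 1 to 4 in the others. The groups did not overlap in CPM for 12 of the 58: 9 with each ATF4 BKO library above both WT libraries and 3 with each below them, where 8.95% and 10.6% of all genes did so. In TPM the balance turned, with 2 of the 58 above (Apoc1 and Gpat4) and 18 below, against 3.02% and 24.9% of all genes. Of the 9 above in CPM, 2 stayed above in TPM, and the 3 below in CPM stayed below.

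Among 13 genes of lipolysis and its regulators, 5 were above 0 and 8 below on counts with TMM scaling (median log2 fold change -0.02), and 6 and 7 on log2(TPM + 1). Prkar2b, the regulatory subunit of protein kinase A that prevails in adipocytes, measured 697, 649 and 698 CPM in the ATF4 BKO libraries and 891 and 844 CPM in the WT libraries. Every ATF4 BKO value was below both WT values (-0.35 ± 0.14, SE; edgeR adjusted p = 0.911). Aqp7, the channel through which glycerol leaves the adipocyte, measured 189 to 204 CPM in the ATF4 BKO libraries against 141 and 183 CPM (0.28 ± 0.16, SE; edgeR adjusted p = 0.912), and overlapped in TPM. Its log2 fold change was 0.12 without WT 1 and 0.47 without WT 2. Ces1d, a carboxylesterase with triglyceride hydrolase activity, was the most abundant of the group and its values overlapped (1266, 1047 and 1843 CPM against 922 and 1297 CPM).

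Of 11 droplet proteins tested, 6 were above 0 and 5 below on counts with TMM scaling, but 4 and 7 on log2(TPM + 1). Hsd17b11, a droplet dehydrogenase, measured 36.3, 41.1 and 40.5 CPM in the ATF4 BKO libraries and 25.3 and 33.6 CPM in the WT libraries (0.42 ± 0.17, SE; edgeR adjusted p = 0.911), and overlapped in TPM (log2 fold change 0.24). On counts it was 0.24 without WT 1 and 0.84 with muscle markers as a covariate. Fitm2 and Bscl2, which act in droplet formation at the endoplasmic reticulum, also did not overlap in CPM, with log2 fold changes of 0.19 ± 0.13 and 0.19 ± 0.13 (SE). Both overlapped in TPM, where the log2 fold changes were 0.0064 and 0.0203, and Bscl2 was at 0.13 on counts without WT 1. Cidea, which helps droplets to fuse and is the most abundant of the group, overlapped in CPM, at 1228 to 1454 CPM against 1401 and 1425 CPM, and was below both WT libraries in TPM.

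For lipoprotein lipase maturation and lipoprotein uptake, 5 of 11 genes were above 0 and 6 below on counts with TMM scaling, and 4 and 7 on log2(TPM + 1). Apoc1, an apolipoprotein and the most abundant of the group, measured 229, 215 and 313 CPM in the ATF4 BKO libraries and 149 and 183 CPM in the WT libraries (0.61 ± 0.21, SE; edgeR adjusted p = 0.911). Sel1l, part of the complex that helps lipoprotein lipase leave the endoplasmic reticulum, was below both WT values in each ATF4 BKO library by a narrow margin (-0.13 ± 0.12, SE). The 8 macrophage markers all had a log2 fold change above 0 (median 0.42, none called by edgeR or DESeq2), but 6 of 8 were below 0 without WT 1 (median -0.27) and 5 of 8 without ATF4 BKO 2. Their median was 1.90 within prefix S1 (ATF4 BKO 1 and 2 against WT 1) and -1.26 within S2 (ATF4 BKO 3 against WT 2). A fit with muscle markers as a covariate called 4 of the 8 (Adgre1, C1qb, Csf1r and Lyz2, median 3.16). That fit could not reliably tell the muscle marker level apart from genotype. Macrophage RNA thus differed between libraries of 1 genotype, and the part of macrophage RNA in the apolipoprotein values was not tested. Lyz2, the most abundant macrophage marker, measured 531, 835 and 320 CPM in the ATF4 BKO libraries and 89.3 and 739 CPM in the WT libraries.

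Fatty acid transport, binding and activation showed 6 of 11 genes above 0 and 5 below. Fabp4, the fatty acid binding protein of adipocytes and the most abundant of the group, measured 6977, 6961 and 8745 CPM against 6186 and 6446 CPM (0.26 ± 0.21, SE), and its log2 fold change was 0.14 without ATF4 BKO 3. Slc27a2, an acyl-CoA synthetase and transporter, measured 277, 372 and 320 CPM against 225 and 272 CPM (0.38 ± 0.18, SE). Neither overlapped between groups in CPM, but both did in TPM, where the log2 fold changes were 0.06 and 0.21. Neither was called, with edgeR adjusted p of 0.933 and 0.911.

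In triglyceride synthesis, 4 of 7 genes were above 0 and 3 below on counts with TMM scaling, and 3 and 4 on log2(TPM + 1). The isoenzymes that take the first step in the endoplasmic reticulum lay on opposite sides. Gpat4 measured 534, 474 and 554 CPM in the ATF4 BKO libraries and 335 and 387 CPM in the WT libraries (0.53 ± 0.15, SE; edgeR adjusted p = 0.831). Gpat3, at a far lower level, measured 10.6, 14.8 and 3.30 CPM against 24.1 and 21.8 CPM (-1.26 ± 0.55, SE; edgeR adjusted p = 0.911). Dgat1, which completes triglyceride, was above both WT values in each ATF4 BKO library in CPM (0.30 ± 0.15, SE) but not in TPM, while Agpat2, the most abundant of the group, overlapped. The 5 PPAR factors, nuclear receptors and partners that drive many of these genes, overlapped in CPM. Ppara had the largest log2 fold change of the 5 (-0.62 ± 0.30, SE), at 67.0, 92.4 and 50.6 CPM in the ATF4 BKO libraries and 84.5 and 130 CPM in the WT libraries, and in TPM each ATF4 BKO value was below both WT values. Its edgeR adjusted p was 0.911. Pparg, the most abundant of them, measured 217, 272 and 216 CPM in the ATF4 BKO libraries and 222 and 246 CPM in the WT libraries.

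**Figure D5:**
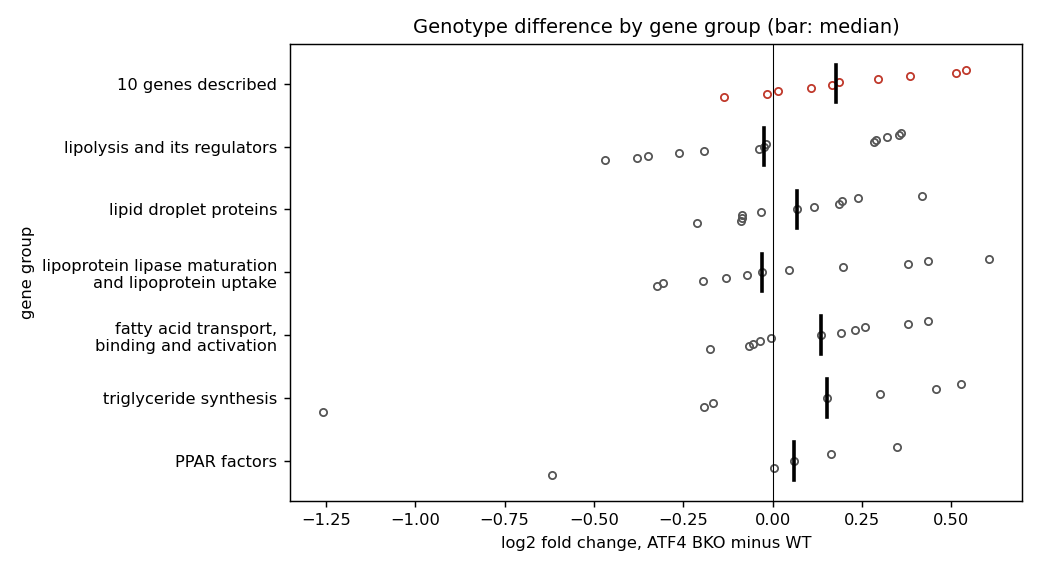
log2 fold change (ATF4 BKO minus WT, edgeR on counts with TMM scaling) of the 10 genes (red) and of the 58 further genes tested in 6 groups (grey), 1 circle for each gene, with a black bar at each group median. Points lie on both sides of 0 in each group. The medians run from -0.03 to 0.18 on this scale. On log2(TPM + 1) that of the 10 genes is -0.08 and that of the 58 is -0.18, beside -0.12 for all genes. The isolated point on the left is Gpat3 (-1.26).

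Brown adipocyte markers were read as a measure of the cells that carry most of these genes. They summed to 16410, 12770 and 16230 CPM in the ATF4 BKO libraries and 12610 and 14520 CPM in the WT libraries, and none was called. Their median log2 fold change was 0.10 on counts with TMM scaling, near 0 (-0.0031) with library totals alone and -0.09 on log2(TPM + 1). The medians of all genes on these scales were 0.01, -0.10 and -0.12. Ucp1, the uncoupling protein that makes heat, was the most abundant of the brown adipocyte markers (0.17 ± 0.24, SE). All 14 skeletal muscle markers had a log2 fold change below 0 (median -6.44), and 13 of 14 had each ATF4 BKO value below both WT values, against 10.6% of all genes. Of the 14, 0 were called by edgeR and 7 by DESeq2, with 13 at an unadjusted edgeR p under 0.05. Without WT 2 the median was -2.43, and 6 of the 13 then tested had an unadjusted p under 0.05. Without WT 1 it was -7.39, and edgeR called 5 of 13 (Casq1, Myh1, Mylpf, Tnnc2 and Tnni2). Myl1, the most abundant of them per length over the 5 libraries, was the 1 marker whose groups overlapped, and it measured 32.8, 21.3 and 37.1 CPM in the ATF4 BKO libraries and 30.3 and 86.4 CPM in the WT libraries. With the level of muscle markers as a covariate, the median of the 10 lipid genes was 0.19 and none of the 10 was called, but single genes moved: Angptl4 from 0.54 to 1.44, Lpl from 0.17 to 0.76, Pnpla2 from 0.38 to 0.04 and Plin5 from 0.02 to -0.44. The muscle markers themselves had a median of 0.41 in that fit. Because their level separated the groups, these values cannot be read as genotype effects freed of muscle RNA.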

How the data were processed

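Libraries were made with a TruSeq stranded mRNA kit and sequenced on a HiSeq4000. The authors quantified them with kallisto 0.45.0 (mm10 per the labels), and the deposited files give estimated counts and TPM for each of 141450 transcripts. Transcripts were summed per gene with GENCODE M21 (GRCm38). The 3259 that did not match held 1.16% to 1.29% of counts and were left out. Counts were rounded.

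ATF4 BKO was compared with WT over 16450 genes (at least 10 counts in at least 2 libraries) with edgeR 4.0.16 quasi-likelihood tests in R 4.3.3, TMM scaling, Benjamini-Hochberg adjustment and a threshold of 0.05. SE is the log2 fold change over the root of F. Alternatives used DESeq2 1.42.0, limma 3.58.1 on log2(TPM + 1) and log2(TPM + 0.1), other scalings and filters, covariates, and each library left out.

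Genes named beyond the 10 and Atf4 are those of the wider list whose groups did not overlap in CPM or whose unadjusted p was under 0.05, the most abundant of each group, and markers (brown and white adipocyte, endothelial, skeletal muscle, macrophage, B cell, erythroid). Most genes of the wider list that separated in TPM alone are not named. Ppara, Fitm1 and Cacna1i were named after their values were seen. The members and lists were chosen with earlier results of these data known.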

Additional observations from a re-analysis of the deposited data

Results flagged for a closer look

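ATF4 BKO 1 held 4598 estimated counts of Xist, a gene outside the comparisons, where the other 4 libraries held 0 to 7, although the labels give all 5 mice as male. Without this library none of the 10 lipid genes was called, and their median log2 fold change was 0.19.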

How the results depend on the processing

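None of the 10 lipid genes or the 58 further genes was called under any alternative tried; counting the further genes under each, and group overlap in TPM, were added after seeing the data. Atf4 was called by DESeq2 (log2 fold change -2.83) and with at least 1 count in all (-2.82). Calls over all genes numbered 1, and 121 by DESeq2 (100 lower, 21 higher), 8 with at least 1 count, 0 on log2(TPM + 1), 2 on log2(TPM + 0.1), 0 with the name prefix as a term, 218 with the muscle marker covariate (7 lower, 211 higher), and 0 to 23 with a library left out. The fit with the muscle marker covariate could not reliably tell that level apart from genotype. Whether replicate numbers pair the samples could not be decided. With 2 WT libraries, their deviations are mirror images, so the correlations (0.047 and 0.2 over 2 pairs) cannot show or exclude pairing. The replicate block gave 0 calls and a median of 0.12 for the 10 genes. That median was -0.0835 and -0.0836 on the TPM scales, 0.1262 to 0.3048 with a library left out, and 0.17 and 0.20 within prefixes S1 and S2. The sign of single genes changed as follows, and the cause was not tested. With library totals alone, Lipe was at -0.0055 and Plin5 at -0.085. On log2(TPM + 1) and log2(TPM + 0.1), Lipe was at -0.0836 and -0.0837, Plin5 at -0.15 and -0.1507, Lpl at -0.0834 on both, and Cd36 at -0.1098 and -0.1099. Abhd5 was at 0.0129 with length-scaled counts, 0.0825 without ATF4 BKO 2, 0.10 without WT 2, 0.0143 with the prefix term, 0.0744 with the muscle covariate and 0.0771 within S1. Plin5 was at -5e-04 without ATF4 BKO 2, -0.0654 without ATF4 BKO 3, -0.2415 without WT 2, -0.0508 with the replicate block, -0.4384 with the muscle covariate and -0.3169 within S1. Plin1 was at 8e-04 without ATF4 BKO 2. Lpl was at -0.0772 without WT 1 and -0.0106 within S2. With each library left out in turn, Abhd5 ran from -0.1175 to 0.10, Plin1 from -0.2106 to 8e-04, Plin5 from -0.2415 to 0.3178 and Lpl from -0.0772 to 0.4606.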

Other observations

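White adipocyte markers were low beside the brown ones, at 224 to 433 CPM in sum, mostly Npr3 (207 to 406 CPM; log2 fold change -0.25). Of 5 tested, 2 were above 0 (Slc7a10 at 0.41 and Hoxc8 at 0.24) and 3 below, and none was called by edgeR or DESeq2. Lep, which encodes leptin, measured 2.12, 0.320 and 2.19 CPM in ATF4 BKO and 12.1 and 6.17 CPM in WT (log2 fold change -2.57 ± 0.73, SE; edgeR adjusted p = 0.831). Nnat, a membrane protein of adipocytes, measured 3.84, 5.41 and 1.25 CPM against 8.58 and 11.5 CPM (-1.52 ± 0.56, SE; edgeR adjusted p = 0.911). The 4 erythroid markers, globin genes, were highest in WT 1 at 3269 CPM against 1330 to 2002 CPM elsewhere, and 0 of 4 were called by edgeR or DESeq2. The 4 B cell markers summed to 1.84 to 4.77 CPM in the 5 libraries.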
